A study of Mus musculus with 18 samples.

Results

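The question was in which genes a ketogenic diet changed RNA levels differently in kidney and in liver. The comparison covers all genes tested in 1 model of the 12 kidney and liver libraries, out of 18 libraries in the series, and 15038 of the 22609 gene symbols listed in every file had enough counts to be tested. Whole organs of C57BL/6J wild-type mice, from an inbred strain, were sequenced for RNA. The 4 groups were ketogenic kidney, chow kidney, ketogenic liver and chow liver, each with 3 libraries that the labels call biological replicates. Ketogenic mice ate a diet of 90% fat, 9.7% protein and 0.3% carbohydrate for 21 days from 4 weeks of age, and chow mice ate standard chow over the same time. The labels do not give the sex of the mice or say whether a kidney and a liver came from the same mouse. All 12 libraries held 0 to 7 counts of Xist, the RNA of the inactive X chromosome, and 990 to 2210 counts of the Y-linked gene Ddx3y. The diet effect is the log2 fold change of ketogenic over chow within an organ. The difference is the diet effect in kidney minus that in liver, so that a positive value means a diet effect that was higher in kidney. Levels are CPM, counts scaled to equal effective library sizes over the 12 libraries, and they are not divided by gene length, so they are compared only within a gene.

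With almost no carbohydrate in the food, liver burns fatty acids in its mitochondria and turns the acetyl-CoA into ketone bodies, which it exports and cannot itself use. The kidney takes up fatty acids and ketone bodies as fuel, makes glucose from amino acids and lactate, and reclaims solutes in its proximal tubule. Liver is also the main site of fatty acid synthesis from sugar, of bile acid synthesis and of lipoprotein export, and its enzymes for these paths are set by insulin, by the fatty acid receptor PPAR-alpha, by sterol levels and by the circadian clock.

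Kidney libraries held 16173996 to 19923905 counts in all and liver libraries 18151967 to 23835383. Ketogenic liver replicates 1 and 2 were nearly the same library. The median chi-square between them was 0.708 over genes, where counting alone gives 0.455 and the other pairs within these 4 groups had 1.73 to 4.77. They differed by little more than sampling noise and were counted as 1 sample in group means, so that n = 2 for ketogenic liver there. The model took all 3 ketogenic livers as separate samples, so its p-values are too small if replicates 1 and 2 came from 1 mouse. Ketogenic kidney replicate 1 stood apart from the other ketogenic kidneys, and values without it are given for some of the results only. The organ labels held: on the scale of total counts, the 13 proximal tubule markers summed to 37412, 46151 and 42942 CPM in ketogenic kidneys and 35380.2, 35859.8 and 33481 CPM in chow kidneys, and the 15 hepatocyte markers to 107827 to 114726 CPM in ketogenic livers and 170075 to 176205 CPM in chow livers. On the same scale, the 16 markers of distal nephron and collecting duct summed to 8315, 5382 and 4954 CPM in ketogenic kidneys. In chow kidneys they summed to 8477, 7882 and 9237 CPM. In bulk samples such as these, fewer cells of a type and less RNA per cell cannot be told apart.

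The diet effect differed between the organs in 4608 of the 15038 genes tested (30.6%) at an adjusted p under 0.05. It was higher in kidney for 2600 genes (17.3%) and lower in kidney for 2008 (13.4%). The split depended on the scaling: with libraries scaled to their total count, the median difference over all genes moved to -0.10, against 0.04 as tested, and 35.3% of the called genes were higher in kidney, against 56.4% as tested. Most of these genes answered to the diet in liver. Of the 4608, 370 had a diet effect that was called in kidney and not in liver, and 3574 one that was called in liver and not in kidney. Another 184 (1.22% of genes tested) moved in opposite directions, 121 of them up in kidney and down in liver and 63 down in kidney and up in liver. A further 137 moved the same way in both organs by unequal amounts, 19 of them more in kidney and 118 more in liver, and 343 had no call in either organ alone. On its own, the diet effect was called for 1674 genes in kidney (11.1%) and 6314 in liver (42%). It rose for 788 genes in kidney (5.24%) and 2868 in liver (19.1%), and fell for 886 in kidney (5.89%) and 3446 in liver (22.9%), the shares against which the counts in each list are to be read.

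Among the 10930 genes with a mean of at least 2 CPM in each organ, the median size of the diet effect was 0.14 in kidney and 0.31 in liver on the log2 scale. Across these genes the 2 diet effects had a Pearson correlation of 0.302 and a Spearman correlation of 0.0759, which are descriptions over genes that share libraries. A group of 533 genes was called in the same direction in both organs with no called difference. The count of opposite genes was the least steady: it ran from 54 without chow kidney replicate 1 to 444 without ketogenic kidney replicate 1, and it was 106 with the near-identical livers summed. Genes are named below only if their difference passed in all 12 fits that leave out 1 library and with those livers summed, as 3002 genes did. Cyp2a5, Acot1, Acot2, Alb, Sc5d, Ebp, Cpt1a, Oxct1, Pdk4, Cd36, Nr1d1, Nr1d2, Per2, Per3, Gm129, Tef, Dbp, Pck1, Igf1, Mki67, Cdkn1a, Trp53 and Col1a2 are outside that rule and are given because a statement on their list needs them. Counts of 1 to 4 members of a list often moved by 1 or 2 with a single library left out. Many larger moves are given beside the count. With 1 library left out, lower counts ran from 13 to 17 for cholesterol synthesis and 8 to 15 for interferon response. Higher counts ran from 9 to 15 for glycolysis and gluconeogenesis, 3 to 9 for the unfolded protein response and 6 to 22 for proliferation.

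**Figure D1:**
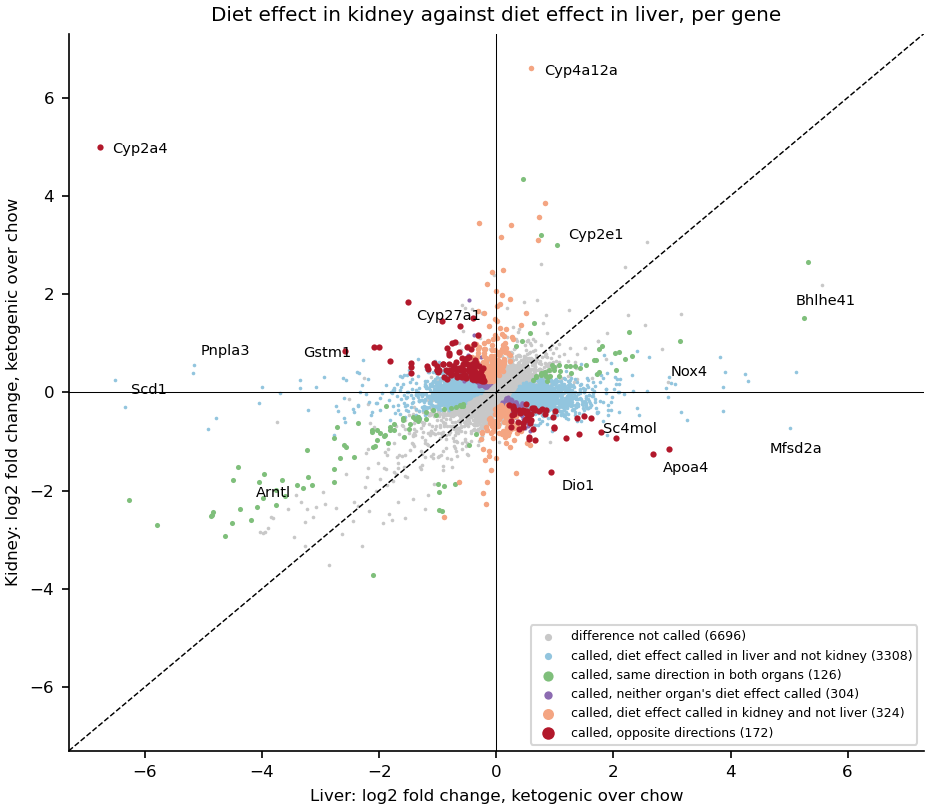
Diet effect (log2 fold change, ketogenic over chow) in kidney on the vertical axis and in liver on the horizontal axis, 1 point for each of the 10930 genes with a mean of at least 2 CPM in each organ, coloured by which contrasts were called, with the number of genes in brackets. The dashed line marks equal effects. The points spread further along the liver axis, and the 172 opposite genes shown lie at upper left and lower right.

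Genes that moved in opposite directions included enzymes and carriers of lipids and hormones. Cyp27a1, the sterol 27-hydroxylase of bile acid synthesis (chromosome 1, 74760148 to 74784464, plus strand, mm9), had 32.6, 35.0 and 39.1 CPM in ketogenic kidneys and 15.04, 17.6 and 14.8 CPM in chow kidneys. Ketogenic livers had 461, 459 and 489 CPM, against 599, 565 and 576 CPM in chow livers. Its level was higher on the ketogenic diet in kidney and fell in liver, with no overlap of the diets in either organ. The diet effect was 1.17 in kidney (adjusted p = 1.5e-05) and -0.30 in liver (adjusted p = 0.0147), a difference of 1.47 (SE 0.13, adjusted p = 1.32e-05). Lrrc3, a gene for a leucine-rich repeat protein, had 18.2, 20.3 and 21.9 CPM in ketogenic kidneys and 9.88, 10.6 and 9.44 CPM in chow kidneys. In liver the ketogenic libraries held 137, 137 and 142 CPM and the chow libraries 253, 214 and 211 CPM. Lrrc3 rose by 1.01 in kidney, while in liver its diet effect was -0.70, a difference of 1.72 (SE 0.13, adjusted p = 3.12e-06). Cyb5r3, a reductase that passes electrons to desaturases and sterol enzymes, differed by 1.43 (SE 0.12, adjusted p = 7.65e-06), and the heparan sulfate proteoglycan Sdc2 by 1.46 (SE 0.13, adjusted p = 1.45e-05). Igfbp3, a carrier of insulin-like growth factors, had 235, 286 and 309.6 CPM in ketogenic kidneys and 210.2, 229.8 and 189 CPM in chow kidneys. Its ketogenic liver libraries showed 25.98, 26.2 and 20.5 CPM, against 65.4, 61.6 and 73.1 CPM in chow livers. The Igfbp3 difference was 1.86 (SE 0.17, adjusted p = 1.7e-05). Lsr, a receptor for lipoproteins, had the smallest of these 6 differences, 1.10 (SE 0.10, adjusted p = 1.58e-05). All 6 genes were higher in every ketogenic kidney than in any chow kidney and lower in every ketogenic liver than in any chow liver.

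Of the genes that fell in kidney and rose in liver, Apoa4, an apolipoprotein of triglyceride-rich particles (chromosome 9, 46048927 to 46051541, plus strand, mm9), had the largest difference of the 6 named. Apoa4 had 10.4, 9.02 and 9.31 CPM in ketogenic kidneys and 26.2, 20.7 and 21.4 CPM in chow kidneys. On the liver side, ketogenic libraries had 1337, 1356 and 2157 CPM and chow libraries 285, 230.4 and 245 CPM. The diet effect was -1.25 in kidney (adjusted p = 0.000782) and 2.67 in liver (adjusted p = 2.29e-07), a difference of -3.92 (SE 0.25, adjusted p = 1.56e-06). Dio1, the deiodinase that makes active thyroid hormone (chromosome 4, 106964070 to 106979748, minus strand, mm9), had 21.8, 15.6 and 13.7 CPM in ketogenic kidneys and 53.7, 53.8 and 48.5 CPM in chow kidneys. The level was 324, 336 and 332 CPM in ketogenic livers and 182, 188 and 147 CPM in chow livers. Dio1 fell in kidney and rose in liver without overlap, with effects of -1.61 in kidney and 0.94 in liver, a difference of -2.55 (SE 0.20, adjusted p = 3.82e-06). Sc4mol, a sterol methyl oxidase of cholesterol synthesis now called Msmo1, had 20.2, 17.7 and 17.8 CPM in ketogenic kidneys and 29.3, 26.5 and 24.4 CPM in chow kidneys. Values in liver were 777, 798 and 729 CPM on the ketogenic diet and 209, 297 and 249 CPM on chow. Its difference was -2.14 (SE 0.17, adjusted p = 4.89e-06). Aadat, an aminotransferase of lysine and kynurenine breakdown, differed by -1.47 (SE 0.14, adjusted p = 2.26e-05), the membrane protein Tm4sf1 by -1.89 (SE 0.18, adjusted p = 2.26e-05) and the protease inhibitor Tfpi2 by -1.64 (SE 0.16, adjusted p = 2.5e-05).

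**Figure D2:**
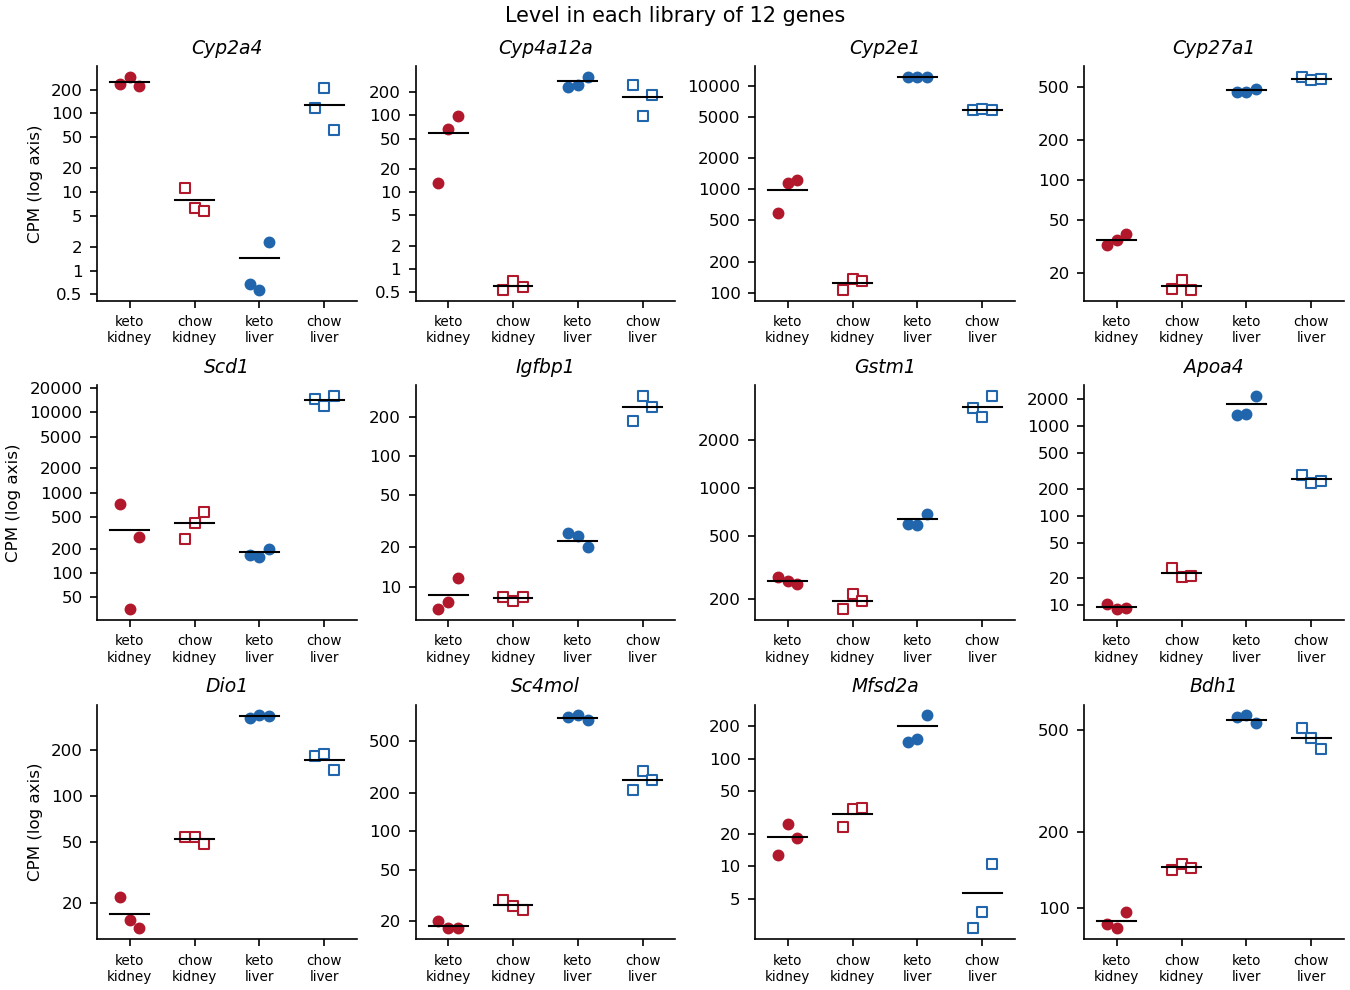
CPM in each library (log axis) of 12 genes in ketogenic kidney, chow kidney, ketogenic liver and chow liver, with ketogenic libraries as filled circles and chow libraries as open squares. Lines mark group means, with ketogenic liver replicates 1 and 2 counted as 1 sample. Cyp2a4 and Cyp27a1 are higher in ketogenic than chow kidneys and lower in ketogenic than chow livers, Apoa4, Dio1, Sc4mol and Bdh1 the reverse, and ketogenic kidney replicate 1 is the lowest of its group for Cyp4a12a and Cyp2e1.

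The largest positive difference among the genes eligible for naming was that of Cyp2a4, which hydroxylates steroids (chromosome 7, 27092211 to 27100107, plus strand, mm9). Cyp2a4 had 238, 292 and 223 CPM in ketogenic kidneys and 11.4, 6.29 and 5.78 CPM in chow kidneys. Ketogenic livers had 0.677, 0.571 and 2.33 CPM, against 116, 209 and 61.8 CPM in chow livers. The diet effect was 5.002 in kidney (adjusted p = 0.000475) and -6.77 in liver (adjusted p = 4.97e-05), a difference of 11.77 (SE 0.83, adjusted p = 3.58e-05). Cyp2a4 shares most of its sequence with Cyp2a5, and reads that fit both were split between them, so its level is uncertain. Cyp2a5 had 103, 87.5 and 103 CPM in ketogenic kidneys and 7.99, 12.8 and 11.005 CPM in chow kidneys, against 520.2, 539 and 957 CPM in ketogenic livers and 311, 414 and 464 CPM in chow livers, and its own difference was 2.44 (SE 0.35, adjusted p = 0.000546). Cyp4a12a, a fatty acid omega-hydroxylase, had 13.1, 65.9 and 97.1 CPM in ketogenic kidneys and 0.533, 0.69 and 0.585 CPM in chow kidneys. In liver the ketogenic libraries held 234, 249.7 and 317 CPM and the chow libraries 247, 98.0 and 183 CPM. It was near 0 in chow kidneys and higher in every ketogenic kidney, while its effect in liver was 0.60 (adjusted p = 0.455), and the difference was 5.99 (SE 1.13, adjusted p = 0.00464), or an adjusted p of 0.131 by limma-voom. Hao2, a peroxisomal hydroxyacid oxidase, had 342, 187 and 125 CPM in ketogenic kidneys and 165, 191 and 194 CPM in chow kidneys. Its ketogenic liver libraries showed 0.203, 0 and 0.291 CPM, against 18.6, 20.9 and 6.97 CPM in chow livers. The diets overlapped in kidney, and the ketogenic livers held 3, 0 and 4 counts, so the fitted difference of 6.76 (SE 1.12, adjusted p = 0.00213) rests on few counts there, and limma-voom gave an adjusted p of 0.0623.

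Of the other genes with the 10 largest positive differences, most fell to near 0 in ketogenic livers. Atp2b2, a calcium pump of the plasma membrane, had 4.08, 4.99 and 6.26 CPM in ketogenic kidneys and 3.73, 3.896 and 4.14 CPM in chow kidneys, against 0.406, 0.642 and 0.363 CPM in ketogenic livers and 23.2, 14.8 and 13.5 CPM in chow livers, a difference of 5.56 (SE 0.38, adjusted p = 1.56e-06). The nicotinic receptor subunit Chrna4 differed by 4.11 (SE 0.38, adjusted p = 3.54e-05) and the phosphate transporter Slc34a2 by 4.17 (SE 0.54, adjusted p = 0.000124), which had 11, 3 and 0 counts in ketogenic livers. Akr1c18, which inactivates progesterone, differed by 4.27 (SE 0.76, adjusted p = 0.0016) with 2, 4 and 1 counts there. Their fitted sizes depend on how counts near 0 are treated. Scd1, Pnpla3 and Cdc20 complete the 10 and are described with their pathways.

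The largest negative difference was that of Mfsd2a, a carrier of lysophospholipids (chromosome 4, 122624094 to 122638431, minus strand, mm9). Mfsd2a had 12.7, 24.6 and 18.1 CPM in ketogenic kidneys and 22.9, 34.2 and 34.7 CPM in chow kidneys. On the liver side, ketogenic libraries had 141, 152 and 252 CPM and chow libraries 2.65, 3.75 and 10.5 CPM. The kidneys overlapped between the diets and every ketogenic liver was above every chow liver, with a difference of -5.75 (SE 0.65, adjusted p = 0.000307). Osbpl3, an oxysterol-binding protein relative, had 141, 149.7 and 151 CPM in ketogenic kidneys and 123, 136 and 120.0 CPM in chow kidneys, against 25.4, 23.8 and 43.0 CPM in ketogenic livers and 1.07, 0.996 and 2.64 CPM in chow livers, a difference of -4.07 (SE 0.39, adjusted p = 5.3e-05). Apoa4 and the clock gene Bhlhe41 were also among the 10 most negative. The remaining 6 were small noncoding RNAs: Snora74a (-4.71), Snord22 (-4.25), Scarna10 (-4.10), Snord17 (-3.87), Rpph1 (-3.82) and Scarna6 (-3.78), all with adjusted p between 2.15e-05 and 0.00163. Small noncoding RNAs as a class made up 1.21 to 1.46% of counts in ketogenic kidneys and 1.19 to 2.26% in chow kidneys, against 1.07 to 1.52% in ketogenic livers and 0.0907 to 0.264% in chow livers. The chow livers thus stood below the other 3 groups, and the part of library preparation in this was not tested.

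Among genes called in kidney and not in liver, the 5 with the smallest p in the upward direction were Dpys, Cadm1, Cyp2d9, Hsd3b3 and Serpina1b. Dpys, an enzyme of pyrimidine breakdown, had 18.5, 22.2 and 20.7 CPM in ketogenic kidneys and 8.77, 6.21 and 7.34 CPM in chow kidneys. The level was 362, 366 and 384 CPM in ketogenic livers and 380.2, 364 and 353 CPM in chow livers. Its diet effect was 1.46 in kidney (adjusted p = 9.59e-06) and 0.02 in liver (adjusted p = 0.913), a difference of 1.44 (SE 0.15, adjusted p = 3.42e-05). The adhesion molecule Cadm1 differed by 1.52 (SE 0.16, adjusted p = 3.61e-05), and had 21.4, 27.5 and 29.2 CPM in ketogenic kidneys and 10.4, 8.48 and 9.01 CPM in chow kidneys. Serpina1b, an alpha-1 antitrypsin gene, had 7.80, 9.93 and 9.93 CPM in ketogenic kidneys and 2.95, 2.27 and 3.82 CPM in chow kidneys, against 5045, 5318 and 5538 CPM in ketogenic livers and 6328, 6059 and 6079 CPM in chow livers, a difference of 1.82 (SE 0.24, adjusted p = 0.000137). Downward genes included Apoc3, Mxra8, Ugt2b34 and Hist1h4j. Apoc3, an inhibitor of lipoprotein lipase, had 6.91, 7.17 and 6.18 CPM in ketogenic kidneys and 17.7, 13.1 and 12.8 CPM in chow kidneys, against 1658, 1640.0 and 1558 CPM in ketogenic livers and 1427, 1373 and 1316 CPM in chow livers, a difference of -1.34 (SE 0.18, adjusted p = 0.000148). Mxra8 differed by -0.73 (SE 0.12, adjusted p = 0.000633), the glucuronosyltransferase Ugt2b34 by -1.07 (SE 0.18, adjusted p = 0.000668) and the histone gene Hist1h4j by -1.83 (SE 0.34, adjusted p = 0.00133). Dpys, Cyp2d9, Serpina1b, Apoc3 and Ugt2b34 were higher in every liver library than in any kidney library.

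Of the genes called in liver and not in kidney, Asap2, an Arf GTPase activator, had the smallest p of the positive differences. Asap2 had 26.4, 26.6 and 24.9 CPM in ketogenic kidneys and 24.6, 25.9 and 27.3 CPM in chow kidneys. Values in liver were 8.59, 9.701 and 9.09 CPM on the ketogenic diet and 45.9, 43.8 and 47.4 CPM on chow. The kidneys did not separate by diet, the ketogenic livers lay below all chow livers, and the difference was 2.33 (SE 0.11, adjusted p = 1.19e-07). Neurl1b, a ubiquitin ligase that acts on Notch ligands, differed by 3.84 (SE 0.21, adjusted p = 1.95e-07), Gm2a, the activator protein of ganglioside breakdown, by 2.03 (SE 0.14, adjusted p = 1.56e-06), and Gstm1, a glutathione transferase, by 2.79 (SE 0.19, adjusted p = 1.56e-06). In the other direction, Nox4, an NADPH oxidase that makes hydrogen peroxide and is abundant in kidney, had 302, 293 and 256 CPM in ketogenic kidneys and 257, 298 and 249 CPM in chow kidneys. Ketogenic livers had 89.99, 86.7 and 73.6 CPM, against 8.88, 13.4 and 11.2 CPM in chow livers. The Nox4 effect was 0.08 in kidney (adjusted p = 0.726) and 2.90 in liver (adjusted p = 1.98e-08), a difference of -2.82 (SE 0.18, adjusted p = 1.56e-06). Gpcpd1, a phosphodiesterase of choline metabolism, had 24.9, 28.5 and 25.1 CPM in ketogenic kidneys and 30.7, 23.7 and 26.03 CPM in chow kidneys, against 467, 459.8 and 396 CPM in ketogenic livers and 83.0, 104 and 104 CPM in chow livers, a difference of -2.22 (SE 0.17, adjusted p = 2.69e-06). Tmem120a, the sulfotransferase Sult1b1 and the mitochondrial dehydrogenase Hsd17b10 differed by -1.43, -1.92 and -1.47 (adjusted p = 4.89e-06, 1.22e-05 and 1.32e-05).

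**Figure D3:**
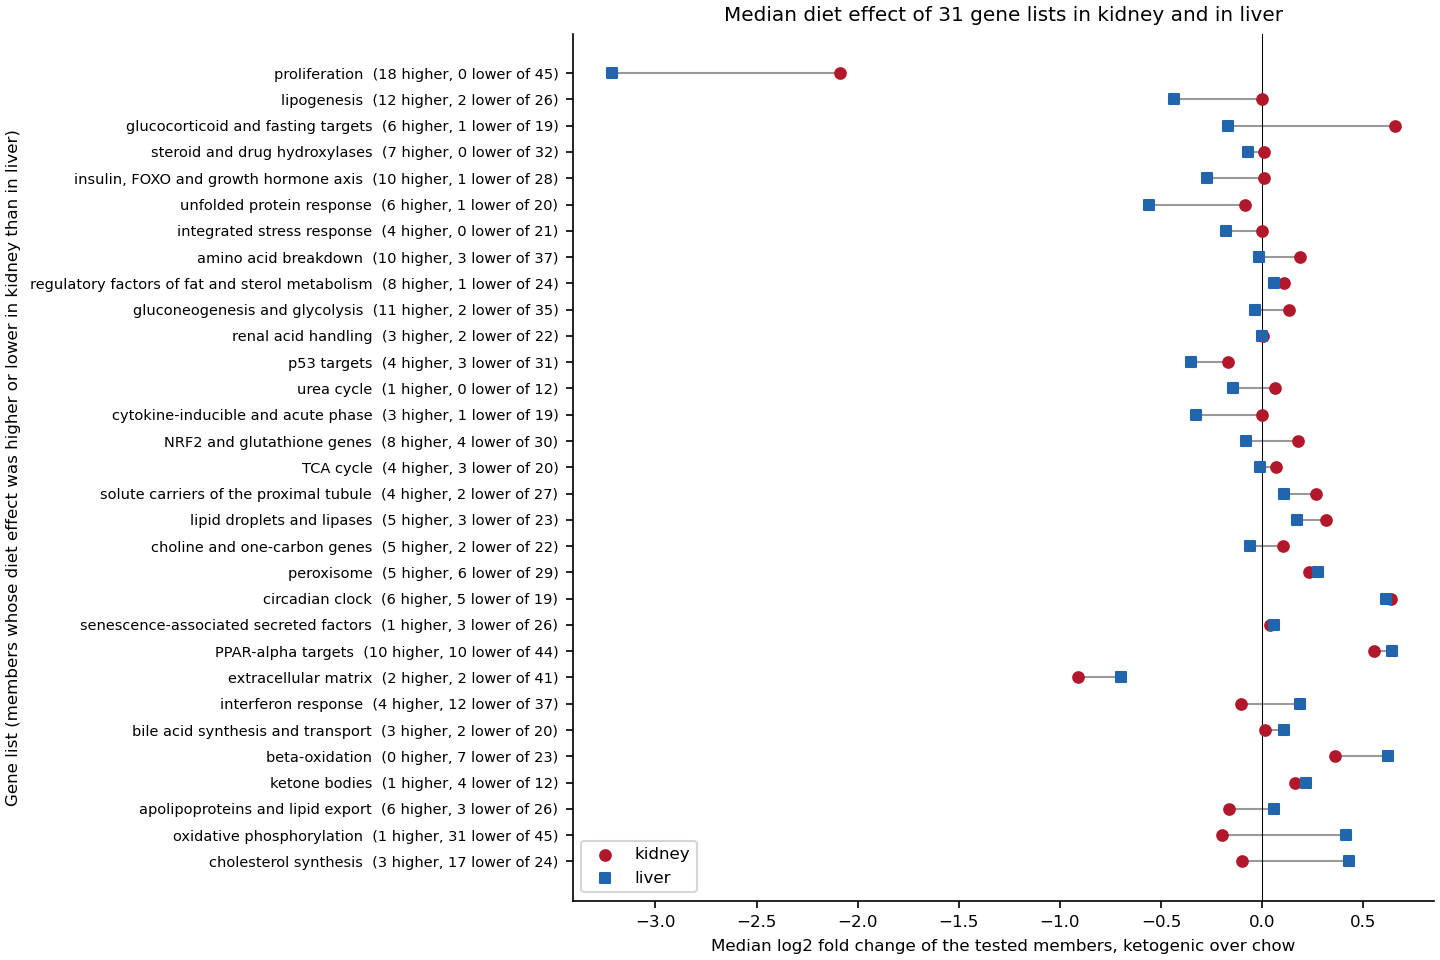
Median diet effect (log2 fold change, ketogenic over chow) over the tested members of 31 gene lists in kidney (circles) and in liver (squares), ordered by the median difference, with the number of members whose difference was called higher or lower in kidney in brackets. Proliferation, lipogenesis and fasting targets lie furthest to the kidney side, and cholesterol synthesis and oxidative phosphorylation furthest to the liver side.

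Of the genes of fatty acid synthesis, 3 of 26 fell in kidney and 13 in liver. Of these 26 tested lipogenesis genes the diet effect was higher in kidney for 12 and lower for 2, against 17.3% and 13.4% of all genes tested. Their median effect was -0.0017 in kidney and -0.44 in liver. Acacb, which makes the malonyl-CoA that holds fatty acids out of mitochondria, had 76.9, 45.7 and 55.9 CPM in ketogenic kidneys and 64.1, 66.4 and 86.0 CPM in chow kidneys. In liver the ketogenic libraries held 96.0, 95.3 and 91.4 CPM and the chow libraries 460.0, 519.7 and 473 CPM. The kidneys overlapped, the ketogenic livers were all lower, and the difference was 2.08 (SE 0.22, adjusted p = 5.1e-05). Pklr, the pyruvate kinase of liver, differed by 1.68 (SE 0.20, adjusted p = 5.91e-05), the acetyl-CoA maker Acss2 by 1.30 (SE 0.18, adjusted p = 0.000158), malic enzyme Me1 by 1.32 (SE 0.19, adjusted p = 0.000267) and transketolase Tkt by 0.85 (SE 0.14, adjusted p = 0.00052), although with all 18 libraries in the model the adjusted p of Tkt was 0.252. Scd1, the stearoyl-CoA desaturase that makes oleate (chromosome 19, 44468940 to 44482199, minus strand, mm9), had 720.3, 35.5 and 282 CPM in ketogenic kidneys and 268, 418 and 582.2 CPM in chow kidneys. Its ketogenic liver libraries showed 167, 157 and 201 CPM, against 14563, 12073 and 15932 CPM in chow livers. The difference was 6.05 (SE 1.17, adjusted p = 0.00455), and 4.91 without ketogenic kidney replicate 1 (adjusted p = 0.00744). Pnpla3, a lipid droplet enzyme, had 3.01, 0.617 and 6.03 CPM in ketogenic kidneys and 1.39, 2.72 and 2.54 CPM in chow kidneys, against 0.203, 0.214 and 0.145 CPM in ketogenic livers and 7.31, 5.86 and 7.59 CPM in chow livers, a difference of 5.71 (SE 1.01, adjusted p = 0.00175) with 3, 3 and 2 counts in ketogenic livers. The kidney libraries also differed in RNA of adipocyte markers. Sums of the 13 markers, on the scale of total counts, were 687, 119 and 675 CPM in ketogenic kidneys. In chow kidneys they were 81.8, 259.6 and 268 CPM. By test, 1 of the 13 rose in kidney and 0 fell. Ketogenic livers held 2839 to 3146 CPM and chow livers 2949 to 3163 CPM, so the list is not particular to fat tissue. The ketogenic kidney lowest in these markers was also lowest in Scd1 and Pnpla3. The part of adipocytes in these 2 genes was not tested.

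Cholesterol synthesis moved the other way. Of 24 tested genes of the pathway and its control, 17 (70.8%) had a lower diet effect in kidney than in liver and 3 (12.5%) a higher one. Over all genes tested these shares were 13.4% and 17.3%. The median difference was -0.65 against 0.04 over all genes. In kidney 1 rose and 5 fell, and in liver 14 rose and 2 fell. Sc4mol, described above, had the smallest p. Idi1, the isomerase of the isoprenoid building block, had 26.3, 24.0 and 24.9 CPM in ketogenic kidneys and 33.8, 24.6 and 22.6 CPM in chow kidneys, against 389, 355 and 320.1 CPM in ketogenic livers and 117, 162 and 149 CPM in chow livers, a difference of -1.42 (SE 0.21, adjusted p = 0.000314). Fdps, which joins these blocks to farnesyl diphosphate, had 11.2, 7.599 and 8.77 CPM in ketogenic kidneys and 15.7, 17.7 and 13.2 CPM in chow kidneys. On the liver side, ketogenic libraries had 461, 456 and 433 CPM and chow libraries 327, 366 and 341 CPM. It fell in kidney and rose in liver, with no overlap of the diets, a difference of -1.14 (SE 0.18, adjusted p = 0.000433). The lanosterol demethylase Cyp51 had effects of 0.06 in kidney and 0.96 in liver, a difference of -0.90 (SE 0.15, adjusted p = 0.000594). Genes with a higher effect in kidney included Sc5d (0.53) and Ebp (0.46), both of the late sterol steps and named after their values were seen.

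Of 23 genes of mitochondrial beta-oxidation, the path that burns fat, 10 rose in kidney and 18 in liver. Of all genes tested, 5.24% rose in kidney and 19.1% in liver. The difference was negative for 7 (30.4%) and positive for 0, against 13.4% and 17.3% of all genes tested. It was positive for 4 without ketogenic kidney replicate 1. The negative genes included Hsd17b10, which had 83.6, 69.1 and 65.5 CPM in ketogenic kidneys and 81.0, 73.9 and 80.2 CPM in chow kidneys, against 333, 348 and 321 CPM in ketogenic livers and 129, 139 and 123 CPM in chow livers. Acadm, the medium-chain acyl-CoA dehydrogenase, had 485, 705 and 681 CPM in ketogenic kidneys and 699, 643 and 597 CPM in chow kidneys. The level was 721, 729.9 and 664 CPM in ketogenic livers and 339, 332 and 329.7 CPM in chow livers. The Acadm effect was -0.05 in kidney and 1.08 in liver, a difference of -1.13 (SE 0.18, adjusted p = 0.000479). Echs1, Hadhb and the carnitine carrier Slc25a20 differed by -0.86, -0.59 and -0.47 (adjusted p = 0.000216, 0.00233 and 0.0122). Cpt1a, the entry step for long-chain fatty acids, had effects of 0.60 in kidney and 0.83 in liver, and its difference of -0.23 did not pass (adjusted p = 0.327).

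In the 12 genes of ketone body metabolism the difference was negative for 4 (33.3%) and positive for 1 (8.33%). Over all genes tested it was negative for 13.4% and positive for 17.3%. The positive count was 3 without ketogenic kidney replicate 1 and 0 without any other single library. It was also 0 with the near-identical livers summed and under total-count scaling. Bdh1, the dehydrogenase that interconverts the 2 ketone bodies, had 86.9, 83.4 and 96.5 CPM in ketogenic kidneys and 142, 149 and 144 CPM in chow kidneys. Values in liver were 561, 572 and 532 CPM on the ketogenic diet and 508, 465 and 421 CPM on chow. It fell in kidney and rose in liver, a difference of -0.96 (SE 0.13, adjusted p = 0.00014). Acat1, a thiolase that acts on acetoacetyl-CoA, differed by -0.74 (SE 0.17, adjusted p = 0.00504). Oxct1, the enzyme by which tissues use ketone bodies, had 995, 875 and 819 CPM in ketogenic kidneys and 1136, 1066 and 1070.1 CPM in chow kidneys, against 8.19, 7.70 and 5.45 CPM in ketogenic livers and 6.68, 7.03 and 6.02 CPM in chow livers, and its difference of -0.40 did not pass (adjusted p = 0.141).

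Targets of PPAR-alpha included genes of either direction. Of 44 tested, 10 (22.7%) had a higher and 10 (22.7%) a lower diet effect in kidney, against 17.3% and 13.4% of all genes tested. The higher share thus lay near that of all genes, and the genes below are described singly. Under total-count scaling 6 were higher and 11 lower. The higher count was 14 without ketogenic kidney replicate 1, 7 without chow liver replicate 1 or 3, and 3 to 6 without any 1 of the other 9 libraries. Of the 4 acyl-CoA thioesterases in the list, Acot3 and Acot4 had a lower effect in kidney, while the differences of Acot1 (0.06, adjusted p = 0.917) and Acot2 (-0.31, adjusted p = 0.28) did not pass. Acot3 had 16.6, 21.4 and 16.1 CPM in ketogenic kidneys and 13.5, 12.2 and 13.8 CPM in chow kidneys, against 20.4, 18.8 and 17.3 CPM in ketogenic livers and 4.41, 4.22 and 5.02 CPM in chow livers, a difference of -1.60 (SE 0.18, adjusted p = 5.13e-05), although Acot genes share reads. Acot4 differed by -1.02 (SE 0.11, adjusted p = 3.37e-05), the thiolase Acaa1a by -0.74 (SE 0.11, adjusted p = 0.000248) and the carnitine transporter Slc22a5 by -0.98 (SE 0.15, adjusted p = 0.000398). On the kidney side, Cyp4a31, an omega-hydroxylase that shares reads with other Cyp4a genes, had 195, 356 and 348 CPM in ketogenic kidneys and 156, 176 and 143 CPM in chow kidneys. Ketogenic livers had 22.9, 21.97 and 20.3 CPM, against 57.9, 108 and 95.0 CPM in chow livers. It rose in kidney and fell in liver, with no overlap of the diets, a difference of 2.92 (SE 0.37, adjusted p = 0.000314). Pdk4, the kinase that holds back glucose oxidation, differed by 1.41 (SE 0.31, adjusted p = 0.00468) and the fatty acid carrier Cd36 by -1.35 (SE 0.28, adjusted p = 0.00359).

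Several enzymes that hydroxylate steroids and drugs rose in kidney. Of 32 tested, 7 (21.9%) had a higher diet effect in kidney and 0 a lower one by edgeR, against 17.3% and 13.4% of all genes tested. The higher share lay near that of all genes. The lower count was 1 without chow kidney replicate 3 or chow liver replicate 1. In kidney 7 rose and 0 of the 32 fell, and in liver 6 rose and 12 fell. Cyp4b1, a fatty acid and xenobiotic hydroxylase, had 1431, 2844 and 3113 CPM in ketogenic kidneys and 434, 490.0 and 385 CPM in chow kidneys. In liver the ketogenic libraries held 26.05, 25.0 and 29.9 CPM and the chow libraries 23.7, 25.4 and 25.4 CPM. The ketogenic kidneys were all above the chow kidneys, the livers overlapped, and the difference was 2.38 (SE 0.32, adjusted p = 0.000207). Cyp2e1, which oxidises ethanol and acetone, had 592, 1159.9 and 1221 CPM in ketogenic kidneys and 107, 136 and 129 CPM in chow kidneys. Its ketogenic liver libraries showed 12139, 12037 and 12145 CPM, against 5861, 5909 and 5864 CPM in chow livers. It rose in both organs without overlap, by 2.999 in kidney and 1.04 in liver, a difference of 1.96 (SE 0.31, adjusted p = 0.000488). With all 18 libraries in the model its adjusted p was 0.167. Cyp2d9, a steroid hydroxylase of male mice with close paralogs, had 123, 145 and 169.8 CPM in ketogenic kidneys and 37.5, 36.8 and 43.4 CPM in chow kidneys, against 1757, 1749 and 1738 CPM in ketogenic livers and 1646, 1337 and 1478 CPM in chow livers, a difference of 1.66 (SE 0.18, adjusted p = 4.23e-05). Hsd3b3, a hydroxysteroid dehydrogenase, differed by 1.20 (SE 0.16, adjusted p = 0.000129). Of 15 hepatocyte markers 7 (46.7%) were higher, Cyp2e1, Serpina1a and Serpina1b among them, against 17.3% of all genes tested. The lower count was 0, or 1 without ketogenic kidney replicate 3. The 15 markers summed to 1056, 1791 and 1941 CPM of total counts in ketogenic kidneys and 405, 393 and 519 in chow kidneys. Every ketogenic kidney lay above the chow kidneys, but Cyp2e1, given above, made up most of the sums in ketogenic kidneys. In kidney 3 of the 15 markers rose and 0 fell, with a median effect of 0.07. Alb, the gene of albumin and a defining hepatocyte marker, stood at 8.59, 10.4 and 32.9 CPM in ketogenic kidneys and 11.3, 5.44 and 55.4 CPM in chow kidneys, with overlap of the diets. The sum of the 13 proximal tubule markers, given above, was higher in every ketogenic kidney than in any chow kidney. By test, 1 of the 13 rose in kidney and 1 fell, with a median effect of 0.31. The part of proximal tubule cells in these genes was not tested.

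Genes of the circadian clock changed in both organs. The clock is a loop in which Arntl, with Clock or Npas2, binds the E-box CACGTG and switches on its own repressors, among them Per and Cry genes, Bhlhe41 and Ciart, while Nr1d1 and Rora compete for the ROR element AGGTCA of Arntl, and Dbp and Tef bind the D-box TTATGNAA. Of 19 clock genes tested, 6 (31.6%) had a higher and 5 (26.3%) a lower diet effect in kidney. The shares over all genes tested were 17.3% and 13.4%. The lower count was 3 without ketogenic kidney replicate 2 or 3 or chow kidney replicate 2 or 3. In kidney 10 rose and 2 fell, and in liver 9 rose and 6 fell. The labels give no hour of collection, so a different phase of the mice on each diet cannot be told apart from the diet.

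RefSeq promoter windows (250 bases before to 50 after a start, build GRCm38.p6) show where these elements lie in 4 of the clock genes whose differences are described here. The window of Arntl is chr7:113207261-113207560 (plus strand), that of Bhlhe41 chr6:145865371-145865670, that of Ciart chr3:95882179-95882478 and that of Per3 chr4:151044616-151044915 (all minus strand), each printed 5′ to 3′ with the match in capitals, on either strand: AGGTCA in Arntl, CACGTG in Bhlhe41 and in Ciart, which holds 3, and TTATGNAA in Per3, which holds 2.
Arntl: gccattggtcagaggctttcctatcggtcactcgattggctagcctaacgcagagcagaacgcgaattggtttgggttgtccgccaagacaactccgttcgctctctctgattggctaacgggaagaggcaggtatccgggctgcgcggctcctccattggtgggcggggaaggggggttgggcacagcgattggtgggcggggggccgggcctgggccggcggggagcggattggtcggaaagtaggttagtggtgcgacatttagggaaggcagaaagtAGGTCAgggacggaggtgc
Bhlhe41: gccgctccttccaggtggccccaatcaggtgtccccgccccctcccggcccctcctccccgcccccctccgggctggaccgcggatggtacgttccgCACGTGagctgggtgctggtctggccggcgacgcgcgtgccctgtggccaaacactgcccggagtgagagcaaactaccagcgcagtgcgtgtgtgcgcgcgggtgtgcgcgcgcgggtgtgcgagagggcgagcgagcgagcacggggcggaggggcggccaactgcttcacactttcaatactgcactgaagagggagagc
Ciart: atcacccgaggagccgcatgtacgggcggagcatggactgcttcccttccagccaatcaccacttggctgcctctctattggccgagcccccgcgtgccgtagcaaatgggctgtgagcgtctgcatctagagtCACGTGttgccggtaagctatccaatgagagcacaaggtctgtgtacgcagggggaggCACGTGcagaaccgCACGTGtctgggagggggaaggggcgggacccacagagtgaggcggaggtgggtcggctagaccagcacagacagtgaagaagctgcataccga
Per3: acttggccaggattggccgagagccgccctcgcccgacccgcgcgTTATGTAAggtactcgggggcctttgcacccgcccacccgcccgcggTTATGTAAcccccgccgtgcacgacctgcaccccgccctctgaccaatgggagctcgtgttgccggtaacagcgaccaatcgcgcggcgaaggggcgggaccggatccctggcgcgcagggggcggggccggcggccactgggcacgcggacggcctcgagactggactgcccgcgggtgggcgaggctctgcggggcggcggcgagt
Of all 32851 RefSeq windows, 7.15% hold CACGTG, 3.38% TTATGNAA and 16.3% AGGTCA on either strand. The windows of 16 of the 18 clock genes searched were in the table, and those of Npas2, Rora, Nr1d1, Cry2, Dbp and Hlf hold 0 of these motifs. A match describes the letters of the window and shows neither binding nor a cause.

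Arntl and its partner Npas2 fell in both organs. Arntl, with the ROR element shown above (chromosome 7, 120350979 to 120457640, plus strand, mm9), had 3.19, 3.89 and 3.86 CPM in ketogenic kidneys and 13.2, 11.4 and 10.4 CPM in chow kidneys. On the liver side, ketogenic libraries had 2.71, 2.28 and 2.47 CPM and chow libraries 50.7, 35.8 and 30.6 CPM. Its diets did not overlap in either organ, with effects of -1.67 in kidney and -3.97 in liver, a difference of 2.29 (SE 0.27, adjusted p = 6.61e-05). Npas2, which pairs with Arntl, had 2.75, 3.70 and 3.52 CPM in ketogenic kidneys and 11.3, 9.62 and 7.65 CPM in chow kidneys. The level was 0.677, 0.428 and 0.218 CPM in ketogenic livers and 12.03, 9.90 and 6.78 CPM in chow livers. Its difference was 2.89 (SE 0.43, adjusted p = 0.000309). Clock, the other partner, had effects of -0.09 in kidney and -0.77 in liver, a difference of 0.68 (SE 0.11, adjusted p = 0.000417). Rora, an activator of Arntl, had 20.8, 25.0 and 25.6 CPM in ketogenic kidneys and 17.0, 17.9 and 16.0 CPM in chow kidneys. Values in liver were 34.7, 29.8 and 38.4 CPM on the ketogenic diet and 60.5, 53.4 and 46.3 CPM on chow. Rora rose in kidney and fell in liver, a difference of 1.13 (SE 0.17, adjusted p = 0.000291). The competing repressor Nr1d1 rose by 0.68 in kidney and was -0.16 in liver, a difference of 0.84 (SE 0.15, adjusted p = 0.00098), while Nr1d2 rose in both, a difference of -0.95 (SE 0.19, adjusted p = 0.00207).

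Bhlhe41 rose in both organs and further in liver. Bhlhe41, the E-box repressor whose window is shown above (chromosome 6, 145811257 to 145813860, minus strand, mm9), had 5.54, 3.09 and 3.48 CPM in ketogenic kidneys and 1.39, 0.893 and 1.91 CPM in chow kidneys. Ketogenic livers had 10.1, 11.6 and 14.2 CPM, against 0.252, 0.293 and 0.377 CPM in chow livers. Its difference was -3.74 (SE 0.48, adjusted p = 0.000108), and the chow livers held 4, 5 and 6 counts of it. Gm129, now called Ciart, with 3 E-boxes in its window, had 7.53, 4.56 and 7.88 CPM in ketogenic kidneys and 0.41, 1.58 and 1.17 CPM in chow kidneys, against 12.4, 12.1 and 28.0 CPM in ketogenic livers and 0.126, 0.352 and 0.816 CPM in chow livers, and its difference of -2.67 (SE 0.85, adjusted p = 0.0353) lost its call in 7 of 12 fits with a library left out. Per3, with a pair of D-boxes, had 50.3, 42.3 and 47.9 CPM in ketogenic kidneys and 24.2, 25.1 and 29.3 CPM in chow kidneys. In liver the ketogenic libraries held 50.9, 46.0 and 69.2 CPM and the chow libraries 4.22, 14.0 and 13.1 CPM. Its difference of -1.56 (SE 0.45, adjusted p = 0.0246) and that of Tef, -0.87 (SE 0.26, adjusted p = 0.024), each lost their call in 3 of those fits. Per2 rose by 1.57 in kidney and 2.26 in liver, and Dbp had effects of 1.59 and 3.15 (adjusted p = 0.0724 and 0.00119); neither difference passed (adjusted p = 0.0541 and 0.123).

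**Figure D4:**
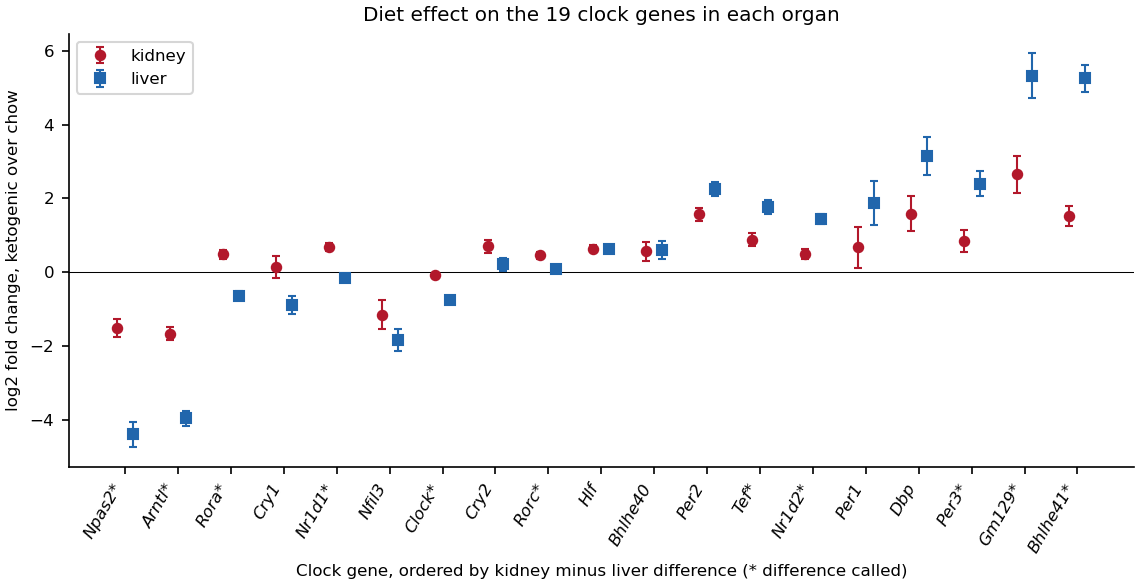
Diet effect (log2 fold change, ketogenic over chow, with SE) of the 19 clock genes in kidney (circles) and in liver (squares), ordered from the highest to the lowest kidney minus liver difference; asterisks mark called differences. Npas2 and Arntl fall in both organs and further in liver, and Bhlhe41 and Gm129 (Ciart) rise in both and further in liver.

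Of 35 genes of glycolysis and gluconeogenesis the diet effect was higher in kidney for 11 (31.4%) and lower for 2 (5.71%). Over all genes tested these shares were 17.3% and 13.4%. In kidney 3 of the 35 fell and in liver 12, against 5.89% and 22.9% of all genes tested. Gpi1, the phosphoglucose isomerase, had 277, 283 and 305 CPM in ketogenic kidneys and 255, 272 and 263 CPM in chow kidneys. Its ketogenic liver libraries showed 166, 168 and 173 CPM, against 266, 279.9 and 288 CPM in chow livers. Its difference was 0.85 (SE 0.11, adjusted p = 8.61e-05), and Pfkm, Gapdh and Pgam1, further down the path, differed by 0.70, 0.95 and 0.75 (adjusted p = 0.000168, 0.000237 and 0.000344). Gapdh has many pseudogene copies that can share its reads. The gluconeogenic enzyme Pck1 had 731, 2876 and 2927 CPM in ketogenic kidneys and 725, 652 and 614 CPM in chow kidneys, against 2374, 2381 and 3613 CPM in ketogenic livers and 2116, 2728 and 2539 CPM in chow livers. Ketogenic kidneys 2 and 3 stood above the other kidneys, replicate 1 was close to the chow kidneys, and the difference of 1.53 did not pass (adjusted p = 0.0674).

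Of 28 genes of insulin, FOXO and growth hormone signalling, 10 (35.7%) had a higher and 1 (3.57%) a lower diet effect in kidney. Among all genes tested, 17.3% had a higher and 13.4% a lower one. The higher count was 6 without ketogenic kidney replicate 3, chow kidney replicate 1 or chow kidney replicate 3, and 5 under total-count scaling. Igfbp1, which binds insulin-like growth factors and is held down by insulin, had 6.73, 7.65 and 11.7 CPM in ketogenic kidneys and 8.40, 7.83 and 8.39 CPM in chow kidneys. On the liver side, ketogenic libraries had 25.6, 24.3 and 20.0 CPM and chow libraries 185, 288 and 237 CPM. The kidneys overlapped, the ketogenic livers were all lower, and the difference was 3.44 (SE 0.29, adjusted p = 2.52e-05). Irs2, an adaptor of the insulin receptor, had 32.7, 30.3 and 41.8 CPM in ketogenic kidneys and 23.5, 35.4 and 24.3 CPM in chow kidneys, against 29.0, 28.5 and 23.8 CPM in ketogenic livers and 92.5, 85.2 and 76.2 CPM in chow livers, a difference of 1.98 (SE 0.23, adjusted p = 8.61e-05). Sesn3 and Sesn1, stress-responsive regulators of TOR signalling, differed by 1.35 (SE 0.18, adjusted p = 0.000111) and -0.51 (SE 0.13, adjusted p = 0.0102). Igfbp3 is described with the opposite genes. Igf1 fell in both organs, with effects of -1.34 in kidney (adjusted p = 0.00126) and -0.85 in liver (adjusted p = 0.00347), and its difference did not pass (adjusted p = 0.212).

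Of 30 NRF2 targets and glutathione genes, 8 (26.7%) had a higher and 4 (13.3%) a lower diet effect in kidney, against 17.3% and 13.4% of all genes tested. The lower count was 2 without ketogenic kidney replicate 2 or 3, ketogenic liver replicate 1 or 2, or chow kidney replicate 1. Under total-count scaling 6 were higher and 6 lower. Gstm1 had 276, 261 and 248 CPM in ketogenic kidneys and 174, 217 and 196 CPM in chow kidneys. The level was 593, 587 and 687 CPM in ketogenic livers and 3153, 2772 and 3749 CPM in chow livers. The ketogenic livers lay far below the chow livers and the kidney effect was 0.42 (adjusted p = 0.0571), a difference of 2.79 (SE 0.19, adjusted p = 1.56e-06); Gstm genes are near copies and share reads. Gstm4 differed by 1.08 (SE 0.13, adjusted p = 5.72e-05), and the sulfiredoxin Srxn1 by 0.63 (SE 0.10, adjusted p = 0.000473). In the other direction, Gpx4, the peroxidase that clears lipid hydroperoxides, had 474, 539 and 489 CPM in ketogenic kidneys and 551, 399 and 485 CPM in chow kidneys. Values in liver were 416, 409 and 309 CPM on the ketogenic diet and 136, 145 and 138 CPM on chow. Its difference was -1.37 (SE 0.19, adjusted p = 0.000144), and that of the exporter Abcc3 was -1.19 (SE 0.24, adjusted p = 0.00202).

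Of 37 genes of amino acid breakdown, 10 (27%) had a higher and 3 (8.11%) a lower diet effect in kidney, against 17.3% and 13.4% of all genes tested. The higher count fell to 6 without ketogenic kidney replicate 3, ketogenic liver replicate 1 or 2, or chow kidney replicate 1 or 3. The lower count was 6 without ketogenic kidney replicate 1. Beside Dpys, Ftcd, which joins histidine breakdown to folate, had 13.2, 8.74 and 8.73 CPM in ketogenic kidneys and 4.10, 3.77 and 4.10 CPM in chow kidneys, against 402, 397 and 496 CPM in ketogenic livers and 477, 475 and 463 CPM in chow livers, a difference of 1.48 (SE 0.21, adjusted p = 0.000179). Oat, the ornithine aminotransferase, had 141, 94.7 and 86.3 CPM in ketogenic kidneys and 152, 153 and 146 CPM in chow kidneys. Ketogenic livers had 1236, 1249 and 1157 CPM, against 628, 558 and 441 CPM in chow livers. Every ketogenic kidney was below every chow kidney (adjusted p = 0.0769) and it rose in liver, a difference of -1.65 (SE 0.23, adjusted p = 0.000215). Cbs and Gldc, of homocysteine and glycine metabolism, differed by 1.06 (SE 0.20, adjusted p = 0.00128) and 1.42 (SE 0.26, adjusted p = 0.0017).

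Of 26 genes of apolipoproteins and lipid export, 6 (23.1%) had a higher and 3 (11.5%) a lower diet effect in kidney. These shares lay near the 17.3% and 13.4% of all genes tested, so only single genes are described. Beside Apoa4 and Apoc3, Mttp, which loads lipid on apolipoprotein B, had 18.8, 28.4 and 28.6 CPM in ketogenic kidneys and 10.99, 11.9 and 11.005 CPM in chow kidneys, against 615, 609 and 553 CPM in ketogenic livers and 631, 596 and 571 CPM in chow livers, a difference of 1.18 (SE 0.19, adjusted p = 0.00047). Tm6sf2 and Apom, also of lipoprotein handling, fell in liver, with differences of 1.33 (SE 0.23, adjusted p = 0.000785) and 0.84 (SE 0.18, adjusted p = 0.00317). Of 20 unfolded protein response genes 6 (30%) had a higher and 1 (5%) a lower effect in kidney. In liver 13 of them fell, against 22.9% of all genes tested. The higher count was 3 without ketogenic kidney replicate 2, ketogenic liver replicate 1 or 2, or any 1 chow kidney. Edem1, of protein disposal from the endoplasmic reticulum, had 96.7, 119 and 125 CPM in ketogenic kidneys and 77.3, 91.0 and 78.0 CPM in chow kidneys, against 228, 219 and 261 CPM in ketogenic livers and 439, 379 and 348 CPM in chow livers, a difference of 1.18 (SE 0.17, adjusted p = 0.000199). Of 19 glucocorticoid and fasting targets 6 (31.6%) had a higher and 1 (5.26%) a lower diet effect in kidney. The higher count was 2 without ketogenic kidney replicate 3 or chow kidney replicate 1, and 3 without ketogenic liver replicate 1 or chow kidney replicate 3. Fkbp5, a target of the glucocorticoid receptor, had 59.8, 64.6 and 55.4 CPM in ketogenic kidneys and 19.2, 25.5 and 25.95 CPM in chow kidneys. Ketogenic livers had 29.97, 30.5 and 37.1 CPM, against 60.1, 35.1 and 54.5 CPM in chow livers. It rose in kidney without overlap of the diets, while the diets overlapped in liver. The Fkbp5 difference was 1.96 (SE 0.25, adjusted p = 0.000209).

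Interferon response genes leaned to the liver side: of 37 tested, 12 (32.4%) had a lower diet effect in kidney and 4 (10.8%) a higher one. Over all genes tested these shares were 13.4% and 17.3%. The lower count was 7 without ketogenic kidney replicate 1 when the near-identical livers were also summed. In kidney 0 rose and 1 fell, and in liver 14 rose and 4 fell. Isg15, a ubiquitin-like protein, had 2.39, 2.66 and 2.43 CPM in ketogenic kidneys and 5.94, 4.42 and 3.94 CPM in chow kidneys, against 29.6, 29.3 and 22.2 CPM in ketogenic livers and 16.1, 11.8 and 7.78 CPM in chow livers, a difference of -2.12 (SE 0.34, adjusted p = 0.000581). Gbp3 and Ifi44 differed by -1.28 (SE 0.18, adjusted p = 0.000176) and -1.51 (SE 0.25, adjusted p = 0.000563), and Ly6e and Tapbp, which fell in liver, by 0.74 (SE 0.12, adjusted p = 0.000698) and 0.69 (SE 0.12, adjusted p = 0.000867). Sums of the 13 macrophage markers, on the scale of total counts, were 134, 152 and 149 CPM in ketogenic kidneys. Chow kidneys had 175, 157 and 165 CPM. The sums were 856, 848 and 560.3 CPM in ketogenic livers and 568, 666 and 578 CPM in chow livers. The part of macrophages was not tested.

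Cell division genes fell in both organs. Of 45 proliferation genes 41 fell in kidney and 42 in liver, with medians of -2.09 and -3.21. For 18 (40%) the fall was smaller in kidney, while 17.3% of all genes tested had a higher effect there. A lower effect in kidney was called for 0, or for 1 without chow liver replicate 2. The count of 18 was 6 without ketogenic kidney replicate 3 and 11 without ketogenic liver replicate 1. Plk1, a kinase of mitosis, had 0.753, 1.33 and 1.66 CPM in ketogenic kidneys and 4.84, 4.59 and 3.63 CPM in chow kidneys, against 0.677, 0.357 and 0.436 CPM in ketogenic livers and 10.7, 11.8 and 11.3 CPM in chow livers, a difference of 2.71 (SE 0.40, adjusted p = 0.000282). Mcm6, a helicase subunit of DNA replication, had 15.9, 16.3 and 17.1 CPM in ketogenic kidneys and 26.8, 29.9 and 23.8 CPM in chow kidneys, against 5.41, 6.63 and 5.38 CPM in ketogenic livers and 29.98, 54.1 and 30.4 CPM in chow livers, a difference of 2.01 (SE 0.30, adjusted p = 0.00044). Cdc20, the activator of the anaphase-promoting complex, differed by 4.08 (SE 0.77, adjusted p = 0.00311), with 2, 13 and 4 counts in ketogenic livers, and Cenpe and Foxm1 by 1.87 (SE 0.42, adjusted p = 0.00448) and 1.49 (SE 0.40, adjusted p = 0.0115). Mki67 fell in each organ, with effects of -2.57 in kidney (adjusted p = 0.00408) and -3.82 in liver (adjusted p = 0.000145), and its difference of 1.25 did not pass (adjusted p = 0.153).

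The series title names p53 and senescence. Of 31 p53 targets tested, 4 (12.9%) had a higher and 3 (9.68%) a lower diet effect in kidney, against 17.3% and 13.4% of all genes, so the list did not stand above the background. The balance turned to 1 higher and 7 lower under total-count scaling, and the higher count was 0 without ketogenic liver replicate 1, chow kidney replicate 1 or chow kidney replicate 3, and 1 or 2 without ketogenic kidney replicate 2 or 3, ketogenic liver replicate 2 or chow liver replicate 1 or 2. The lower count was 5 without ketogenic liver replicate 3 or chow liver replicate 2. In kidney 0 rose and 7 fell, and in liver 5 rose and 12 fell. Ccng1, cyclin G1, had 126, 126 and 139 CPM in ketogenic kidneys and 177, 178 and 154 CPM in chow kidneys. In liver the ketogenic libraries held 63.6, 65.3 and 60.9 CPM and the chow libraries 42.8, 49.8 and 38.5 CPM. It fell in kidney and rose in liver without overlap, a difference of -0.91 (SE 0.13, adjusted p = 0.000252). Perp, an apoptosis and junction protein, differed by -0.50 (SE 0.12, adjusted p = 0.00716). Cdkn1a, the cell-cycle inhibitor p21, had 2.66, 2.42 and 4.06 CPM in ketogenic kidneys and 6.76, 7.67 and 5.42 CPM in chow kidneys. Its ketogenic liver libraries showed 2.098, 3.28 and 1.24 CPM, against 13.4, 17.0 and 8.79 CPM in chow livers. It fell in both organs, with effects of -1.11 in kidney (adjusted p = 0.0326) and -2.56 in liver (adjusted p = 4.97e-05), and its difference of 1.46 (SE 0.45, adjusted p = 0.0264) lost its call in 6 of 12 fits with a library left out. Trp53 itself had effects of -0.25 in kidney (adjusted p = 0.543) and -0.99 in liver (adjusted p = 0.00563), and its difference did not pass (adjusted p = 0.114). Of 41 matrix genes 30 fell in kidney and 27 in liver, against 5.89% and 22.9% of all genes tested. The difference was called for 2 higher and 2 lower (4.88% each), below the 17.3% and 13.4% of all genes. It was called for 10 lower without ketogenic kidney replicate 3 and 5 lower without chow kidney replicate 3. Col1a2, a chain of type I collagen, had effects of -1.66 in kidney and -1.71 in liver, a difference of 0.05 (adjusted p = 0.92).

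Of the respiratory chain genes, 0 of 45 rose and 3 fell in kidney, while 30 rose in liver. Of 45 oxidative phosphorylation genes 31 (68.9%) had a lower diet effect in kidney and 1 (2.22%) a higher one, with medians of -0.20 in kidney and 0.42 in liver. Among all genes tested, 13.4% had a lower and 17.3% a higher one. Atp5e, a subunit of ATP synthase, had 219.6, 236 and 227 CPM in ketogenic kidneys and 372, 230.3 and 338 CPM in chow kidneys, against 346, 372 and 274 CPM in ketogenic livers and 82.2, 104 and 76.9 CPM in chow livers, a difference of -2.38 (SE 0.24, adjusted p = 3.58e-05). Ndufs4, a subunit of complex I, had 81.6, 86.6 and 75.2 CPM in ketogenic kidneys and 109.8, 85.8 and 104 CPM in chow kidneys, against 118, 129 and 106 CPM in ketogenic livers and 53.3, 58.4 and 55.4 CPM in chow livers, a difference of -1.38 (SE 0.14, adjusted p = 3.14e-05). Cox7b and Cox7a2, of cytochrome c oxidase, and Ndufb3 differed by -1.60, -1.24 and -1.07 (adjusted p = 4.23e-05, 4.24e-05 and 5.35e-05). Of 96 cytosolic ribosomal protein genes 53 were lower and 5 higher, of 76 mitochondrial ribosomal protein genes 42 and 5, and of 60 small noncoding RNAs 21 and 0, with a median of -1.14.

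These counts moved with the length of the genes. Over the 10930 genes with at least 2 CPM in each organ, the median difference was -0.88 for 134 genes with exons of up to 500 bases and -0.50 for 634 genes of 500 to 1000 bases, and it was 0.25 for 500 genes of over 8000 bases. In kidney the median effects of those classes were -0.20, -0.10 and 0.06, and in liver 0.60, 0.37 and -0.20. Genes of up to 1000 bases took 7.91 to 8.57% of counts in ketogenic kidneys and 8.23 to 9.77% in chow kidneys, against 9.55 to 12.1% in ketogenic livers and 6.12 to 6.22% in chow livers. With the trend over exon length removed, an alternative chosen after the data were seen, 27.6% of genes were called, 2167 higher and 1988 lower, and 3478 of the called genes were shared with the 4608. Oxidative phosphorylation then had 18 lower and 3 higher genes with a median of -0.15, against -0.63 as tested. The ribosomal protein genes had 37 lower and 19 higher, and the mitochondrial ones 22 lower and 10 higher. Small noncoding RNAs had 10 lower and 2 higher, and their median turned to 0.16. The 6 of them among the 10 most negative genes then differed by -2.73 to -3.67. Apoc3, Hist1h4j and Ndufb3 moved to -0.70, -0.97 and -0.43 (adjusted p = 0.00583, 0.023 and 0.00406). Cholesterol synthesis had 17 lower and 3 higher, lipogenesis had 11 higher and 3 lower, and Atp5e and Ndufs4 differed by -1.61 and -1.27 (adjusted p = 3.81e-05 and 3.29e-05). Whether the length trend came from the RNA or the libraries was not tested.

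**Figure D5:**
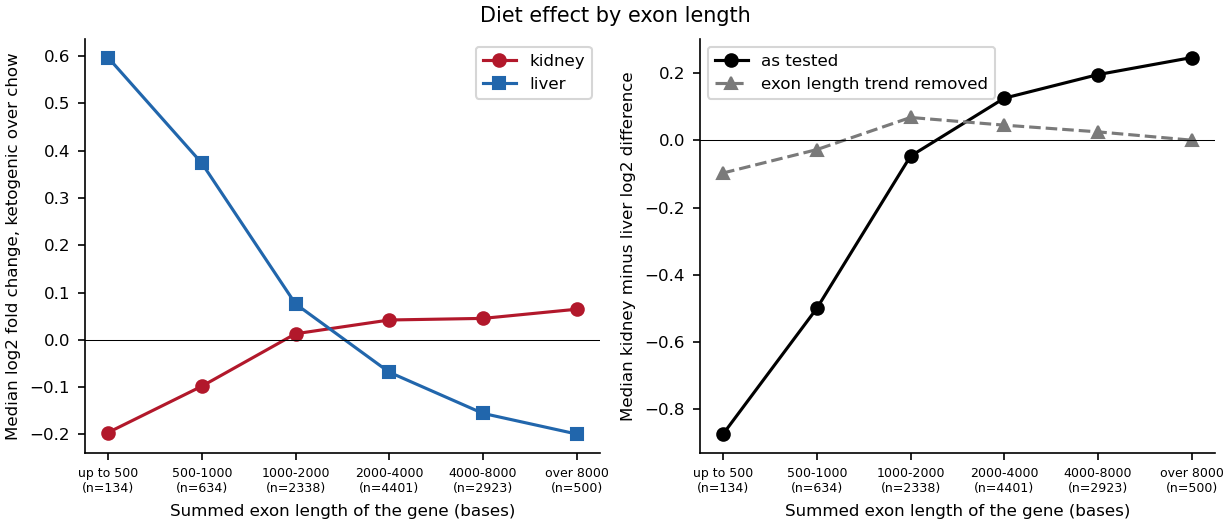
Median diet effect (log2 fold change, ketogenic over chow) in kidney and liver, left, and median kidney minus liver difference as tested and with the exon length trend removed, right, for 6 classes of summed exon length with the number of genes in each. The liver line falls with length, the kidney line rises a little, and the difference runs from -0.88 to 0.25 as tested.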

How the data were processed

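RNA sequencing was done on stranded mRNA libraries of kidney and liver, 12 of the 18 libraries in the series, from RNA with an integrity number above 4, per the labels. The authors aligned reads with HISAT2 2.1.0 and used SAMtools and bcl2fastq (versions not stated), per the submitters' processing notes. The deposited values are estimated counts per gene: per the file headers, featureCounts 1.5.0 counted reverse-stranded pairs over exons of an mm9 annotation and split reads with several hits or overlapping several genes into fractions, so near copies share reads. From these, counts were rounded to whole numbers, genes with low counts were removed with filterByExpr, and 1 edgeR 4.0.16 quasi-likelihood model (R 4.3.3, TMM scaling, robust) with 4 organ-by-diet groups gave the kidney effect, the liver effect and their difference. P-values were adjusted by Benjamini-Hochberg over the 15038 genes tested, with calls under 0.05. limma-voom 3.58.1 and DESeq2 1.42.0, other scalings and filters, 1 library left out at a time, the near-identical livers summed and a replicate block were alternatives, and the model was tested on simulated data. Named genes have a mean of at least 2 CPM in each organ, pass in every fit with 1 library left out and with the livers summed, and are the 10 highest and 10 lowest differences, the smallest p among opposite and 1-organ genes, and up to 5 members of each list. The contrast, gene lists and rules were chosen with earlier results of these data known. Gene positions are from the deposited files (mm9), and promoter windows from RefSeq (GRCm38.p6). Some genes are not reported here. The other 6 libraries entered only the fit with all 18.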

Additional observations from a re-analysis of the deposited data

Results flagged for a closer look

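The test of the difference in diet effect between kidney and liver passed for 4608 genes. Every gene named in the report as a largest, opposite or 1-organ difference met this criterion, and its log2 difference, kidney minus liver, is repeated here.

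The 10 highest were Cyp2a4 11.77, Hao2 6.76, Scd1 6.05, Cyp4a12a 5.99, Pnpla3 5.71, Atp2b2 5.56, Akr1c18 4.27, Slc34a2 4.17, Chrna4 4.11 and Cdc20 4.08. The ketogenic livers held 0 to 15 counts each of Hao2, Akr1c18, Pnpla3, Slc34a2, Cdc20, Atp2b2 and Chrna4, and 10, 8 and 32 of Cyp2a4, so these 8 sizes are imprecise. The other positive differences were Neurl1b 3.84, Gstm1 2.79, Asap2 2.33, Gm2a 2.03, Igfbp3 1.86, Serpina1b 1.82, Lrrc3 1.72, Cyp2d9 1.66, Cadm1 1.52, Cyp27a1 1.47, Sdc2 1.46, Dpys 1.44, Cyb5r3 1.43, Hsd3b3 1.20 and Lsr 1.10.

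The 10 lowest were Mfsd2a -5.75, Snora74a -4.71, Snord22 -4.25, Scarna10 -4.10, Osbpl3 -4.07, Apoa4 -3.92, Snord17 -3.87, Rpph1 -3.82, Scarna6 -3.78 and Bhlhe41 -3.74. Those of Snord22 and Bhlhe41 rest on 7, 13 and 12 and on 4, 5 and 6 counts in chow livers. Of the 10, Snora74a, Snord22, Scarna10, Snord17, Rpph1 and Scarna6 are small noncoding RNAs, a class with 0.0907 to 0.264% of counts in chow livers and at least 1.07% in every library of the other 3 groups. The other negative differences were Nox4 -2.82, Dio1 -2.55, Gpcpd1 -2.22, Sc4mol -2.14, Sult1b1 -1.92, Tm4sf1 -1.89, Hist1h4j -1.83, Tfpi2 -1.64, Aadat -1.47, Hsd17b10 -1.47, Tmem120a -1.43, Apoc3 -1.34, Ugt2b34 -1.07 and Mxra8 -0.73.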

How the results depend on the processing

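Of 157 genes chosen by the naming rule, under all alternatives, 4180 of 4239 values kept their direction and their side of the threshold. Fdx1 reversed to 0.026 (adjusted p = 0.873) with the exon length trend removed, a reversal whose cause was not tested. Outside the test against a 1.5-fold change, 7 genes lost their call under some setting: Hao2 and Cyp4a12a by limma-voom (adjusted p = 0.0623 and 0.131), Tkt, Cyp2e1 and Hnf4a with all 18 libraries (0.252, 0.167 and 0.0504), and Cyp39a1 and Dcn without ketogenic kidney replicate 1 and with the near-identical livers summed (0.0543 and 0.0502).

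The count of genes with a difference was 4873 by DESeq2, 4394 by limma-voom, 4074 under total-count scaling, 3687 with the livers summed, and 3492 to 4996 with 1 library left out. Under total-count scaling 1437 were higher. The stricter test against a 1.5-fold change called 762, of them 316 higher and 446 lower, 4 opposite, 279 in kidney and 1327 in liver. Opposite genes numbered 106 with the livers summed, 349 when ketogenic kidney replicate 1 was also left out, 413 at an adjusted p under 0.1 and 54 to 444 with 1 library left out. They were over 1.5 times fewer without either of chow kidney replicates 1 and 3 (54 and 67), ketogenic kidney replicates 2 and 3 (74 and 68) or ketogenic liver replicates 1 and 2 (98 and 118). Kidney calls numbered 2572 without ketogenic kidney replicate 1 and with the livers summed, 2534 at an adjusted p under 0.1 and 767 to 2731 with 1 library left out. They were 767 and 933 without chow kidney replicates 1 and 3, and 918 and 909 without ketogenic kidney replicates 2 and 3. With 1 library left out, higher genes ran from 1744 to 2759, lower genes from 1613 to 2398 and liver calls from 5080 to 6592. Except where a setting changes the test's threshold, the number of samples or the scaling, the cause was not tested.

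Within a diet, same-numbered kidney and liver deviations correlated between -0.052 and 0.115 over 9495 genes, and unlike-numbered ones between -0.146 and 0.110. Such weak correlations between organs cannot decide whether same-numbered organs came from 1 mouse, which the labels do not say. A replicate block by number called 4510 genes, and a replicate block by a mouse assumed shared within number and diet called 4544. Precision is limited by n = 3, or 2 for ketogenic liver, and by counts near 0 in 1 organ.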

Other observations

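Of all genes tested, 17.3% had a higher and 13.4% a lower diet effect in kidney, and the shares in the lists of lipid droplets, choline metabolism, renal acid handling and proximal tubule carriers lay near or below these, so only single genes are described. Among lipases and lipid droplet genes, of 23 tested 5 (21.7%) had a higher and 3 (13%) a lower diet effect in kidney. Lpl, the lipoprotein lipase, had 364, 471 and 467 CPM in ketogenic kidneys and 434, 449.7 and 322 CPM in chow kidneys, against 36.9, 41.0 and 38.0 CPM in ketogenic livers and 291, 245 and 439.7 CPM in chow livers. The kidneys overlapped between the diets, the ketogenic livers were all below the chow livers, and the difference was 3.18 (SE 0.28, adjusted p = 2.52e-05). Lipg, the endothelial lipase, had 1.51, 1.71 and 1.39 CPM in ketogenic kidneys and 2.13, 3.21 and 2.73 CPM in chow kidneys, against 77.0, 74.2 and 86.1 CPM in ketogenic livers and 19.2, 20.3 and 29.6 CPM in chow livers. It fell in kidney and rose in liver, a difference of -2.60 (SE 0.27, adjusted p = 3.46e-05). Among choline and 1-carbon genes, of 22 tested 5 (22.7%) had a higher and 2 (9.09%) a lower diet effect in kidney. Chka, which phosphorylates choline, had effects of -0.07 in kidney and -1.70 in liver, a difference of 1.63 (SE 0.25, adjusted p = 0.00057), and Chpt1, which completes phosphatidylcholine, one of -1.34 (SE 0.17, adjusted p = 0.000108). Gatm, the first step of creatine synthesis, fell in kidney and rose in liver, a difference of -0.96 (SE 0.17, adjusted p = 0.001).

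For renal acid handling, of 22 tested 3 (13.6%) had a higher and 2 (9.09%) a lower diet effect in kidney, the lower count being 0 without ketogenic liver replicate 2 or chow liver replicate 2 or 3. The carbonic anhydrase Car2 had effects of -0.12 in kidney (adjusted p = 0.406) and -1.43 in liver (adjusted p = 5.03e-07) and the anion exchanger Slc4a1, also a red cell protein, of -0.39 in kidney (adjusted p = 0.138) and -2.70 in liver (adjusted p = 2.74e-05). Among proximal tubule carriers, of 27 tested 4 (14.8%) had a higher and 2 (7.41%) a lower diet effect in kidney, the lower count being 0 without ketogenic liver replicate 1 or 2 or chow kidney replicate 1 and the higher count 7 without ketogenic kidney replicate 1. The phosphate and urate carrier Slc17a1 had 318, 479 and 429.5 CPM in ketogenic kidneys and 279, 310.1 and 259 CPM in chow kidneys and a difference of 1.55 (SE 0.23, adjusted p = 0.000281), and the dicarboxylate carrier Slc13a3 one of 1.43 (SE 0.37, adjusted p = 0.0131). Of the regulators of fat and sterol metabolism, of 24 tested 8 (33.3%) had a higher and 1 (4.17%) a lower diet effect in kidney, or 4 higher and 4 lower under total-count scaling. The higher count was 4 or 5 without ketogenic kidney replicate 2 or 3, ketogenic liver replicate 1 or 2, or chow kidney replicate 1 or 3. Hnf4a, a nuclear receptor of hepatocytes and proximal tubule cells, differed by 0.91 (SE 0.21, adjusted p = 0.00475), and Mlxipl, which answers to sugar, by 0.86 (SE 0.20, adjusted p = 0.00507).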
